A study of Saccharomyces cerevisiae S288C with 24 samples.

Results

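The strain by isobutanol interaction asks, for every gene, whether isobutanol (IB) changed its mRNA by a different amount in a tryptophan-requiring yeast mutant than in its wild-type parent. It was calculated as the log2 change from Sc12 to Sc12 + IB minus the log2 change from WT to WT + IB, so a positive value means a higher change in Sc12. The contrast used 12 of the 24 RNA-seq libraries of the series, 3 for each of WT, WT + IB, Sc12 and Sc12 + IB, none of which had tryptophan added. The other 12 libraries repeated the same 4 groups with 200 µg/ml tryptophan (Trp) and do not enter the contrast, although the fit over all 24 libraries shared 1 estimate of the spread. With the 12 libraries alone, 53 and 22 loci were opposite in place of the 56 and 19 given below. WT was the laboratory strain BY4741, a MATa *Saccharomyces cerevisiae* that carries deletions in histidine, leucine, methionine and uracil genes. Sc12 was the *TRP5* deletion clone of a MATa knock-out collection in that background, so both strains shared those deletions and Sc12 was 1 clone. Both were grown in YPD, a rich medium that itself contains amino acids, and total RNA was taken after 24 h with or without 1.2% isobutanol. Direct effects of isobutanol and effects of growth state cannot be told apart in these libraries. In a bulk culture, fewer cells of one state and less RNA per cell cannot be told apart either.

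*TRP5* encodes tryptophan synthase, which makes the last step of tryptophan synthesis, and cells without it depend on uptake through permeases such as Tat2. Yeast cells short of an amino acid switch on the general amino acid control, in which the activator Gcn4 raises genes of many amino acid pathways at once. Cells on poor nitrogen sources relieve nitrogen catabolite repression, in which GATA-type factors such as Gln3 and Gat1 raise permeases and enzymes that use urea, ammonium, GABA or proline. Thiamine genes answer to thiamine shortage through Thi2, Thi3 and Pdc2, and sulfur genes answer to Met4 with Cbf1, Met31 and Met32. Gluconeogenic and glyoxylate cycle genes are repressed by glucose and rise when cells live on ethanol or acetate.

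Total fragments per library were 13901898 to 14232133 in WT, 9725586 to 13209147 in WT + IB, 5218712 to 10019385 in Sc12 and 10859875 to 11412705 in Sc12 + IB. The shallowest was Sc12 replicate 3, which the labels mark as make-up data. *TRP5* had 3134 to 8481 fragments in each of the 6 WT and WT + IB libraries and 0 to 7 in each of the 6 Sc12 and Sc12 + IB libraries, so the strain labels held. The 7 a-cell genes were present in every group, from a summed 1913 to 2053 CPM (fragment counts scaled to a common library total) in WT down to 165 to 207 CPM in WT + IB. The α-factor gene *MF(ALPHA)1* was at 1.41 to 2.51 CPM in WT, but the 4 alpha-cell genes together were at a summed 268 to 273 CPM. Among them *SAG1* had 3507 to 3591 fragments in the WT libraries. All levels below are CPM (for single libraries in no fixed order unless a replicate is named) of the library size after TMM scaling, which assumes that most genes do not change. The TMM factors were 0.588 to 0.687 in Sc12 + IB against 1.13 to 1.14 in Sc12 and 0.984 to 1.05 in WT + IB. In Sc12 + IB the 10 most abundant loci took 11.6% to 13.5% of the fragments, against 5.5% to 5.7% in Sc12. When library totals replaced TMM, the median locus moved to −0.84 in the Sc12 response and to −0.80 in the interaction, so every change is given relative to the median locus. No label describes an added RNA standard, and a fall in total mRNA per cell was not tested.

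Of 6346 loci tested, 1604 (25.3%) were called in the interaction, with an adjusted p below 0.05 in edgeR's quasi-likelihood test and an absolute log2 above 1. The change was higher in Sc12 at 1016 loci (16.0%) and lower at 588 (9.27%). With library totals the split turned to 431 higher and 2468 lower. Isobutanol changed 1314 loci (20.7%) in WT, 11.8% up and 8.89% down, and 1764 (27.8%) in Sc12, 17.2% up and 10.6% down. Both responses were called at 643 loci, in the same direction at 568 and in opposite directions at 75. The interaction was called at all 75 of these, which made up 4.68% of the 1604. Opposite calls place its size above the threshold by construction, so this is not a separate result. Sc12 alone responded at 708 loci (44.1%), WT alone at 325 (20.3%), and both strains in the same direction but by different amounts at 130 (8.1%). At the other 366 (22.8%) neither response was called by itself. Across all 6346 loci the WT and Sc12 responses had a Pearson r of 0.415 and a Spearman rho of 0.438. Treated and untreated libraries did not overlap at 74.8% of loci in WT and 78.5% in Sc12. The correlations are descriptions across loci, which are not independent replicates, and the responses share no library.

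**Figure D1:**
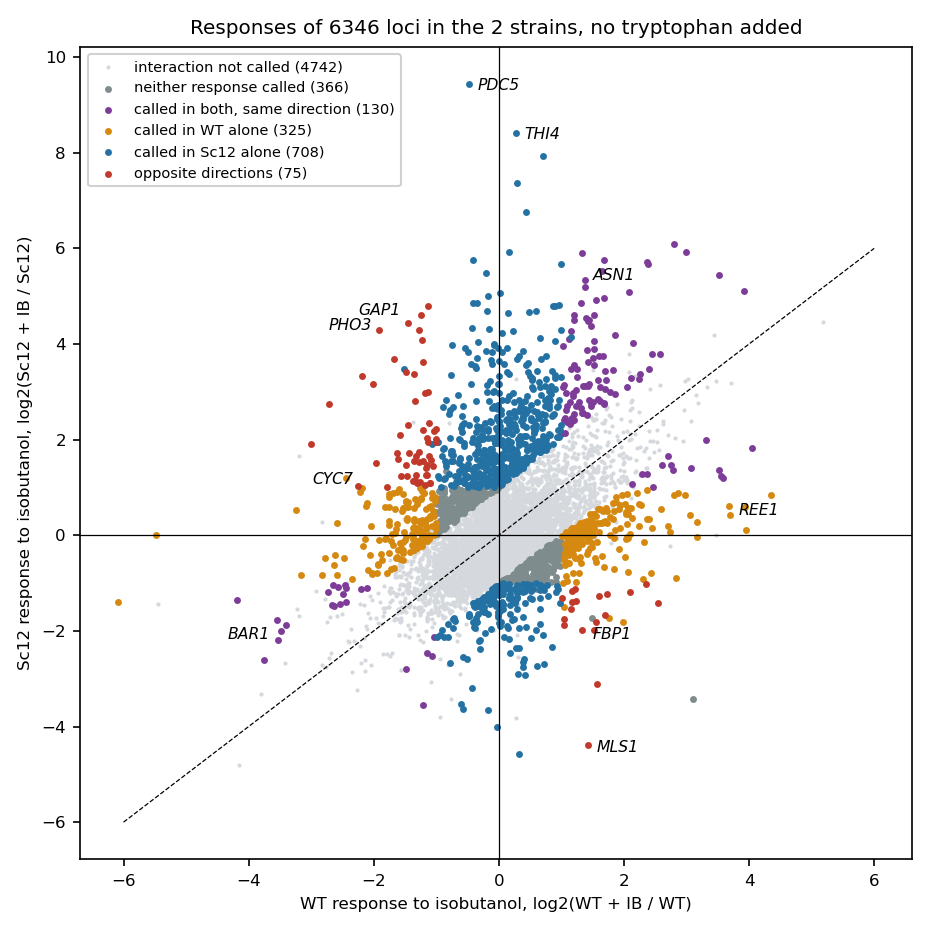
Each point is 1 of 6346 loci, with the log2 response to isobutanol in WT on the x axis and in Sc12 on the y axis, coloured by response class; the dashed line marks equal responses. The 75 opposite loci lie in the upper left (56) and lower right (19), and the upward arm of 519 loci risen in Sc12 alone reaches 9.44 at *PDC5*.

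Opposite responses that rose in Sc12. In 56 loci isobutanol lowered the mRNA in WT and raised it in Sc12, with a median change of −1.28 in WT and 1.73 in Sc12 (log2). Their largest members were genes of thiamine supply (*PHO3*, *THI20*, *THI7*), uptake and use of nitrogen compounds (*GAP1*, *UGA4*, *DUR12*), sulfite reduction (*MET5*) and polyamine export (*TPO2*). Under library totals all 56 kept a called interaction, and 27 kept the opposite calls. In limma on log2(FPKM + 1) 32 of the 56 kept them, and *TPO2* was called in Sc12 alone (WT −0.79).

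*PHO3* (chrII:427698-429101) encodes an acid phosphatase that frees thiamine from thiamine phosphates outside the cell. Its level was 111.5, 111.5 and 114.3 CPM in WT and 36.2, 23.9 and 28.6 in WT + IB, but 74.1, 68.5 and 65.9 in Sc12 and 1208, 1390 and 1491 in Sc12 + IB. It fell 3.79-fold in WT and rose 19.6-fold in Sc12. Treated and untreated libraries were apart in both strains, which was a condition for naming a gene here. The interaction was 6.21 ± 0.19 (SE, adjusted p = 5.62e-18).

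*THI20* (chrXV:224420-226075), a kinase of thiamine synthesis, stood at 110, 109 and 102 CPM in WT, 56.8, 45.3 and 44.7 in WT + IB, 89.5, 89.5 and 79.5 in Sc12, and 2118, 2399 and 2655 in Sc12 + IB. It fell 2.2-fold in WT and rose 27.7-fold in Sc12. The thiamine transporter *THI7* (chrXII:612367-614163) held 172 to 192 CPM in WT and 69.8 to 92.4 in WT + IB. In Sc12 it went from 127, 137 and 150 CPM to 2120, 2455 and 2491, the same order of change as *THI20*.

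*GAP1* (chrXI:515063-516871) encodes the general amino acid permease. Its level was 542, 479 and 550 CPM in WT, 207, 185 and 184 in WT + IB, 199, 226 and 187 in Sc12, and 3704, 4178 and 5360 in Sc12 + IB. The untreated strains already differed at this gene, with Sc12 below WT in every library, and the order was inverted with isobutanol. The interaction was 5.88 ± 0.22 (adjusted p = 3.45e-16).

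*UGA4* (chrIV:84270-85985), the GABA permease, was at 28.6 to 32.4 CPM in WT and 10.4 to 16.6 in WT + IB. In Sc12 it moved from 22.1, 26.8 and 27.5 to 488, 538 and 851 CPM. *DUR12* (chrII:636703-642210), urea amidolyase, was at 322 to 379 CPM in WT, 99.9 to 126 in WT + IB, 160 to 167 in Sc12, and 1768, 1821 and 2772 in Sc12 + IB. Both are genes under nitrogen catabolite repression. In both the highest Sc12 + IB library was replicate 3, as at *PHO3*, *THI20*, *GAP1*, *MET5* and *TPO2* but not at *THI7*. That library had the lowest TMM factor, 0.588.

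*MET5* (chrX:678957-683285), a subunit of sulfite reductase, was at 241 to 243 CPM in WT, 44.0 to 63.0 in WT + IB, 185 to 193 in Sc12, and 1595, 1832 and 2260 in Sc12 + IB. It fell 4.58-fold in WT and rose 10.1-fold in Sc12. *TPO2* (chrVII:763762-765606), a plasma membrane spermine exporter, went from 42.7 to 55.5 CPM in WT to 15.0 to 26.4 in WT + IB. In Sc12 it went from 50.5 to 63.5 CPM to 950 to 1173. Of the 50-base windows of *TPO2*, 41.3% occur more than once in the genome, so a part of its reads could come from a relative such as *TPO3*.

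Of the 56, 6 stayed below 10 CPM in all 4 groups and 1 locus joined 2 genes. Apart from those 6 and the 8 above, interactions ran from 2.19 (*YMR265C*) to 5.16 (*TDA6*). They include more sulfur genes (*MET1* 4.15, the cysteine transporter *YCT1* 4.14, the S-adenosylmethionine permease *SAM3* 3.35, *MET13* 2.81). Heat shock genes were among them, with *HSP30* at 4.72, the mitochondrial chaperone *HSP78* at 3.68 and the disaggregase *HSP104* at 2.39. Nitrogen genes included *GLT1* (3.17), glutamate synthase, *UGA3* (3.03), the activator of GABA genes, and *NPR1* (2.49), a kinase that stabilises Gap1. *PDR12* (3.49), an exporter of weak organic acids, *LYS1* (4.13) of lysine synthesis and *URA2* (2.80) of pyrimidine synthesis also belonged here.

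**Figure D2:**
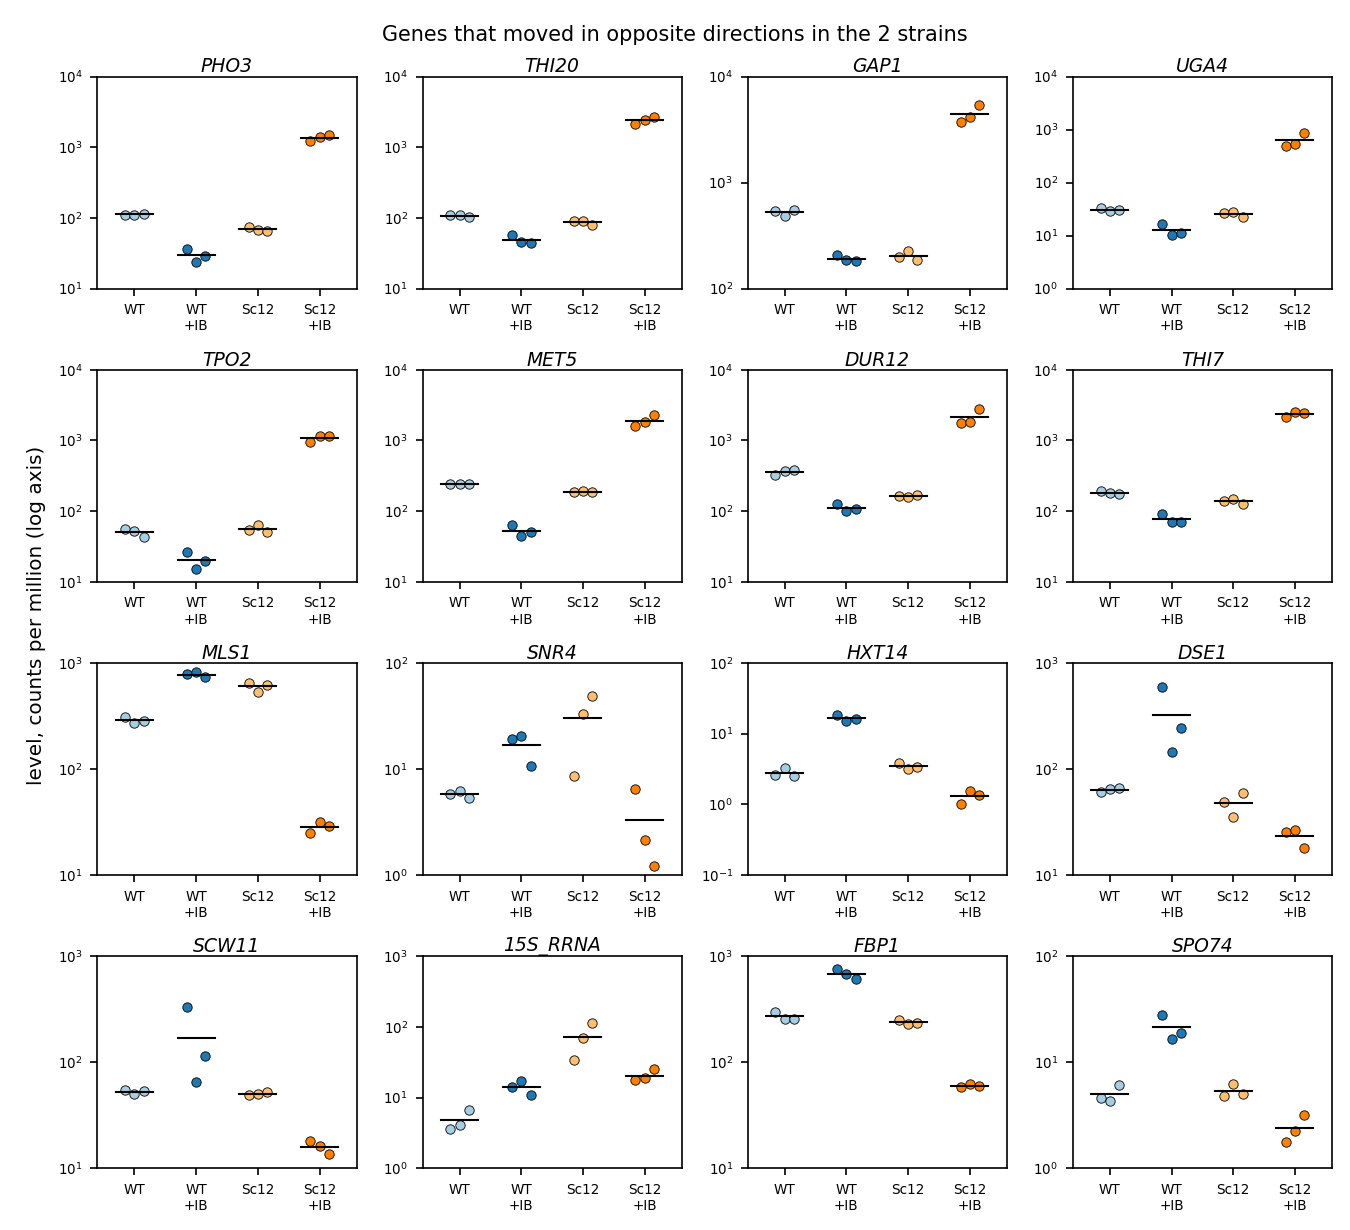
Points show the level of each gene in each of the 3 libraries per group in CPM on a log axis, and the bar is the mean. The first 8 panels hold genes that fell in WT and rose in Sc12, for example *PHO3* from 65.9 to 74.1 in Sc12 to 1208 to 1491 in Sc12 + IB; the last 8 hold genes with the reverse pattern, led by *MLS1*.

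Opposite responses that fell in Sc12. In 19 loci isobutanol raised the mRNA in WT (median 1.42) and lowered it in Sc12 (median −1.41). The largest interaction was at *MLS1*, followed by *SNR4*, *HXT14* and *SNR128*. The group held 5 genes for growth on non-fermentable carbon (*MLS1*, *FBP1*, *PCK1*, *SFC1* and *IDP2*), daughter cell genes (*DSE1*, *SCW11*) and small non-coding RNAs. All 19 kept a called interaction under library totals and 16 kept the opposite calls. In limma on log2(FPKM + 1) 8 of the 19 kept them. There *HXT14* (Sc12 −0.72), *SPO74* (Sc12 −0.93) and *DSE1* (Sc12 −1.03) were called in WT alone and *SNR4* (WT 0.99) in Sc12 alone.

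*MLS1* (chrXIV:406358-408022), malate synthase of the glyoxylate cycle, was at 312, 270 and 286 CPM in WT and 786, 814 and 730 in WT + IB. In Sc12 it was at 651, 538 and 616 CPM and with isobutanol at 25.1, 31.5 and 29.1. It rose 2.68-fold in WT and fell 21.1-fold in Sc12, an interaction of −5.82 ± 0.29 (adjusted p = 3.24e-14).

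*FBP1* (chrXII:873746-874792), fructose-1,6-bisphosphatase of gluconeogenesis, was at 257 to 297 CPM in WT and 607, 680 and 756 in WT + IB. It was at 228 to 249 CPM in Sc12 and 58.8, 59.3 and 62.2 in Sc12 + IB. The starting levels of the strains were close. Treated and untreated libraries were apart in both, as the rule for naming a gene required. *PCK1*, phosphoenolpyruvate carboxykinase, averaged 627 CPM in WT, 1902 in WT + IB, 689 in Sc12 and 287 in Sc12 + IB. The mitochondrial succinate-fumarate carrier gene *SFC1* (interaction −2.93) and the cytosolic isocitrate dehydrogenase gene *IDP2* (−2.58) moved likewise. *ICL1* (chrV:285241-286914), isocitrate lyase, was at 702 to 809 CPM in WT and 1337 to 1398 in WT + IB, a WT change of 0.85 that missed the threshold of 1. It fell from 910 to 923 CPM in Sc12 to 172 to 190 in Sc12 + IB, and was therefore called in Sc12 alone (interaction −3.19).

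*DSE1* and *SCW11* act in the daughter cell, where the septum is dissolved after division. *DSE1* (chrV:407342-409063) was at 61.3 to 65.8 CPM in WT, 589, 144 and 245 in WT + IB, 35.4 to 59.0 in Sc12, and 18.1 to 26.6 in Sc12 + IB. *SCW11* (chrVII:441281-442909) was at 49.95 to 54.6 CPM in WT, 332, 65.6 and 114 in WT + IB, 49.2 to 52.2 in Sc12, and 13.6 to 18.1 in Sc12 + IB. In both, WT + IB replicate 1 lay far above the other 2 libraries. Without it the interaction moved from −3.37 to −2.61 at *DSE1* and from −3.36 to −2.42 at *SCW11*, both still called.

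*HXT14* (chrXIV:38707-40329), a relative of the hexose transporters, was at 2.53 to 3.29 CPM in WT, 15.0 to 18.3 in WT + IB, 3.20 to 3.79 in Sc12, and 1.02 to 1.56 in Sc12 + IB. *SPO74* (chrVII:184153-185394), a meiotic spindle pole gene, was at 4.30 to 6.10 CPM in WT, 16.7 to 28.2 in WT + IB, 4.76 to 6.29 in Sc12, and 1.79 to 3.17 in Sc12 + IB. Both are low genes, and the untreated libraries of the 2 strains overlapped. *HXT14* shares a counted stretch with *YNL319W*. *OPI3*, an enzyme of phosphatidylcholine synthesis, averaged 577 CPM in WT, 1287 in WT + IB, 441 in Sc12 and 151 in Sc12 + IB.

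The non-coding RNAs of this class spread widely among replicates. The small nucleolar RNA *SNR4* (chrV:424698-424883) was at 5.27 to 6.25 CPM in WT and 10.7 to 20.7 in WT + IB. It was at 8.64, 32.9 and 48.9 CPM in Sc12 and 6.51, 2.12 and 1.21 in Sc12 + IB. The mitochondrial ribosomal RNA *15S_RRNA* (chrMT:6546-8194) was at 3.59 to 6.78 CPM in WT, 10.9 to 17.0 in WT + IB, 34.0, 69.2 and 115 in Sc12, and 17.5 to 25.2 in Sc12 + IB. In both, the make-up library Sc12 replicate 3 was the highest of its group. Without it the interaction went from −4.68 to −4.17 at *SNR4* (−5.71 without Sc12 + IB replicate 1) and from −3.36 to −2.89 at *15S_RRNA*. The *15S_RRNA* call was lost in limma on log2(FPKM + 1), with a value of −1.86.

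The class border is narrow. Just inside it, *TPO3* had responses of −1.003 in WT and 2.23 in Sc12, and *UGA3* −1.01 and 2.02. Just outside, *CYC7* had −2.19 in WT and 0.98 in Sc12 and counts below among the genes called in WT alone. *CYC1* had 1.03 and −0.99.

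Responses of Sc12 alone. At 519 loci isobutanol raised the mRNA in Sc12 (median change 1.93) with no called change in WT (median 0.01), and at 189 it lowered it (median −1.40 in Sc12 and 0.01 in WT). The WT change was below 0.5 in size at 352 of the 519 and at 148 of the 189. The largest rises were in *PDC5*, *THI4*, *ALD5*, *THI73*, *MEP2* and *AGP1*, whose 3 Sc12 + IB libraries all stood above the other 9. Of the 519, 275 kept a called interaction under library totals, and 219 remained in this class. Of the 189, all kept it.

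*PDC5* (chrXII:410723-412414), a pyruvate decarboxylase isozyme that needs thiamine pyrophosphate, was at 48.1, 47.1 and 44.0 CPM in WT, 33.9, 33.3 and 32.7 in WT + IB, and 40.3, 40.9 and 38.2 in Sc12. In Sc12 + IB it was at 23881, 25404 and 33679 CPM, 694-fold higher. The interaction of 9.91 ± 0.30 (adjusted p = 5.62e-18) was the largest of all 6346 loci.

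*THI4* (chrVII:780399-781379), which makes the thiazole part of thiamine, was at 25.1 to 30.6 CPM in WT, 30.0 to 36.1 in WT + IB and 30.6 to 38.0 in Sc12. In Sc12 + IB it was at 9394, 11077 and 13572 CPM, a 342-fold rise. *THI73* (chrXII:157934-159505), a transporter of thiamine-regulated expression, was below 43 CPM in the other 9 libraries and at 3936, 4834 and 5591 in Sc12 + IB. Both had a WT change under 0.3 in size, and the libraries of Sc12 + IB stood clear of all others.

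*ALD5* (chrV:304030-305592), a mitochondrial aldehyde dehydrogenase, was at 45.8 to 50.4 CPM in WT and 69.3 to 84.9 in WT + IB. It was at 33.0 to 38.2 CPM in Sc12 and 7431, 8611 and 10196 in Sc12 + IB, a 243-fold rise.

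*MEP2* (chrXIV:357453-358952), the high-affinity ammonium permease, was at 176 to 196 CPM in WT, 237 to 276 in WT + IB, 67.1 to 90.1 in Sc12, and 7137, 8664 and 10509 in Sc12 + IB. *AGP1* (chrIII:76018-77919), a broad amino acid permease, was at 380 to 427 CPM in WT, 257 to 351 in WT + IB, 305 to 365 in Sc12, and 15199, 17278 and 21856 in Sc12 + IB. Both thus ranked with *GAP1* among transporters of nitrogen compounds that stood highest in Sc12 + IB.

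Among the falls in Sc12 alone, *ARO9* and *ARO10* take part in the breakdown of aromatic amino acids by the Ehrlich pathway, as transaminase and decarboxylase. *ARO9* (chrVIII:375709-377250) was at 712 to 743 CPM in WT, 390 to 595 in WT + IB, 516 to 597 in Sc12, and 38.9, 47.6 and 49.9 in Sc12 + IB, a 12.3-fold fall in Sc12. It shares a counted stretch with *YHR137C-A*. *ARO10* (chrIV:1234218-1236125) was at 170 to 175 CPM in WT, 426, 179 and 240 in WT + IB, 115 to 134 in Sc12, and 27.4 to 29.8 in Sc12 + IB. Without the high WT + IB replicate 1 its interaction was −2.36 in place of −2.80.

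*CHA1* (chrIII:15798-16880), a serine and threonine deaminase that serine and threonine induce, was at 723 to 1080 CPM in WT, 1264 to 1762 in WT + IB, 1066 to 1474 in Sc12, and 187 to 213 in Sc12 + IB. The small nucleolar RNAs *SNR34* (chrXII:899180-899382) and *SNR190* (chrX:139761-139950) had large fitted falls and a wide spread among replicates. *SNR34* was at 6.00, 32.4 and 56.6 CPM in Sc12 and 4.85, 0.565 and 0 in Sc12 + IB. Its interaction of −3.96 became −6.66 without Sc12 + IB replicate 1 and −3.27 without Sc12 replicate 3. *SNR190* was at 18.4, 98.4 and 212 CPM in Sc12 and 13.4, 6.5 and 5.58 in Sc12 + IB, and its −3.48 became −2.59 without Sc12 replicate 3. The call was lost in limma on log2(FPKM + 1), with a value of −3.04.

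**Figure D3:**
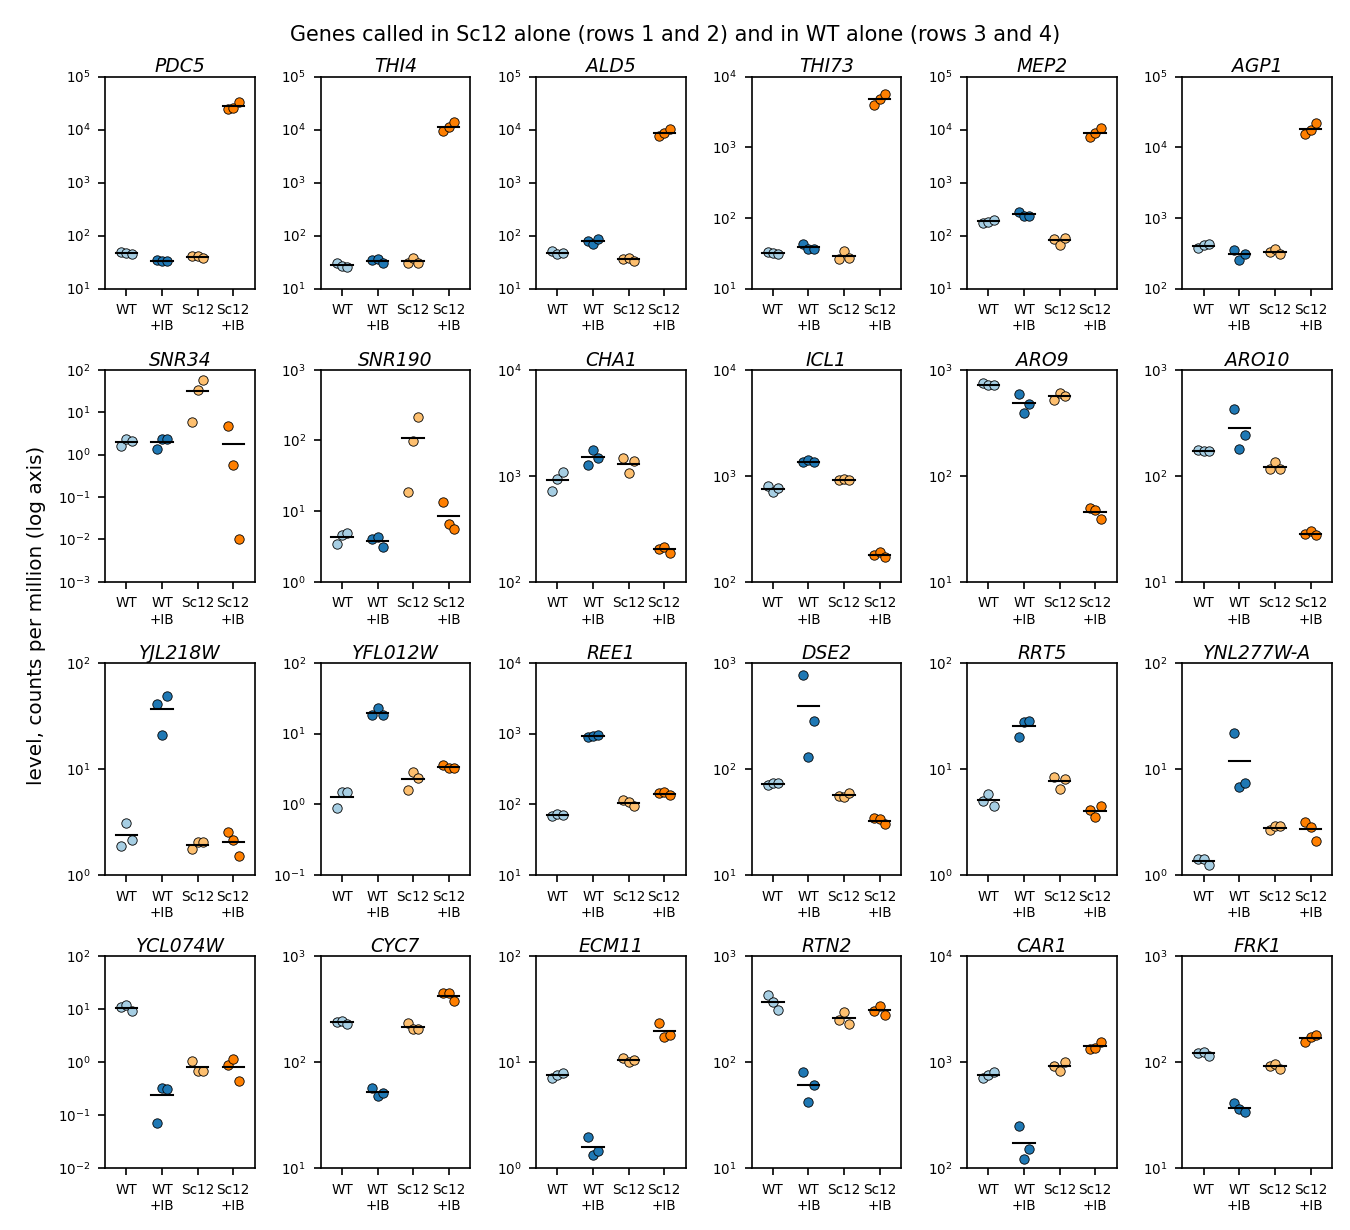
Points show each library's level in CPM on a log axis with the group mean as a bar; the value of 0 for *SNR34* in 1 Sc12 + IB library is drawn at the bottom of its panel. Rows 1 and 2 hold genes called in Sc12 alone and rows 3 and 4 genes called in WT alone; in row 1 the Sc12 + IB libraries stand above the other 9.

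Responses of WT alone. At 177 loci isobutanol raised the mRNA in WT (median 1.45) with no called change in Sc12 (median 0.05), and at 148 it lowered it (median −1.45 in WT and 0.06 in Sc12). The Sc12 change was below 0.5 in size at 127 of the 177 and 90 of the 148. All 177 kept a called interaction under library totals, and 51 of the 148 did.

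*REE1* (chrX:23133-23729), a regulator of enolase, was at 69.1 to 72.1 CPM in WT and 884, 917 and 962 in WT + IB, a 13.0-fold rise. It was at 96.4 to 114 CPM in Sc12 and 134 to 150 in Sc12 + IB. Nearby on the same chromosome, the putative acetyltransferase gene *YJL218W* (chrX:21973-22563) went from 1.90, 3.09 and 2.12 CPM in WT to 41.3, 20.9 and 48.8 in WT + IB. It stayed between 1.51 and 2.55 CPM in all 6 Sc12 and Sc12 + IB libraries.

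*YFL012W* (chrVI:110647-111093), transcribed during sporulation and of unknown function, was at 0.881 to 1.51 CPM in WT, 18.2 to 22.9 in WT + IB, 1.59 to 2.91 in Sc12, and 3.25 to 3.57 in Sc12 + IB. *RRT5* (chrVI:222090-222959), also a sporulation-expressed gene of unknown function, was at 4.52 to 5.85 CPM in WT, 20.1 to 28.2 in WT + IB, 6.49 to 8.47 in Sc12, and 3.53 to 4.52 in Sc12 + IB. *DSE2* (chrVIII:385510-386487), a further daughter cell gene, was at 70.2 to 74.0 CPM in WT, 767, 131 and 282 in WT + IB, 54.9 to 59.7 in Sc12 and 30.2 to 34.3 in Sc12 + IB. *YNL277W-A* (chrXIV:116679-116867) was at 1.23 to 1.42 CPM in WT, 21.9, 6.82 and 7.39 in WT + IB, and 2.11 to 3.19 across Sc12 and Sc12 + IB. In *DSE2* and *YNL277W-A* the highest library was again WT + IB replicate 1, without which the interactions of −3.23 and −3.20 became −2.28 and −2.40. Under library totals *DSE2* and *RRT5* were called as opposite responses.

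*CYC7* (chrV:79636-79977), the cytochrome c isoform of low oxygen and stress, led the falls in WT among well expressed genes. It was at 232 to 244 CPM in WT, 48.4 to 57.0 in WT + IB, 204 to 234 in Sc12, and 379, 446 and 450 in Sc12 + IB. *RTN2* (chrIV:94605-95786), a reticulon of the endoplasmic reticulum, was at 313 to 427 CPM in WT, 42.0 to 80.8 in WT + IB, 231 to 299 in Sc12, and 282 to 342 in Sc12 + IB, so it fell 6.00-fold in WT while the Sc12 groups overlapped.

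*CAR1* (chrXVI:339944-340945), arginase, was at 711 to 805 CPM in WT, 121, 152 and 249 in WT + IB, 832 to 1003 in Sc12, and 1335 to 1547 in Sc12 + IB. *FRK1* (chrXVI:283464-286061), a protein kinase, was at 115 to 126 CPM in WT, 34.0 to 41.6 in WT + IB, 86.9 to 96.5 in Sc12, and 154 to 183 in Sc12 + IB. *ECM11* (chrIV:1353725-1354633), a meiotic gene, was at 7.05 to 7.95 CPM in WT, 1.33 to 1.95 in WT + IB, 10.2 to 10.9 in Sc12, and 17.4 to 23.2 in Sc12 + IB. In these genes the Sc12 libraries with isobutanol were all above those without, by less than the threshold.

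The largest interaction among the falls in WT belonged to *YCL074W* (chrIII:2824-3750), a pseudogene with a fragment of a Ty polymerase. It was at 9.18 to 11.9 CPM in WT, 0.0724 to 0.333 in WT + IB, and 0.452 to 1.13 across the 6 Sc12 and Sc12 + IB libraries. Its level in untreated Sc12 was thus already near the level that WT reached with isobutanol.

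Responses of both strains in the same direction. At 98 loci the change was larger in Sc12 and at 32 it was larger in WT. Under library totals 48 of the 98 and 16 of the 32 kept a called interaction, and 45 and 4 stayed in their class. *ASN1* (chrXVI:822620-824338), asparagine synthetase, went from 277 to 337 CPM in WT to 719 to 870 in WT + IB, and from 166 to 180 in Sc12 to 5944, 6839 and 8254 in Sc12 + IB. *YOL014W* (chrXV:299693-300067), of unknown function, rose 3.20-fold in WT and 53.9-fold in Sc12. *MF(ALPHA)1* (chrXVI:193648-194145), which encodes α-factor and is not a product of a cells, was at 1.41 to 2.51 CPM in WT, 4.32 to 5.86 in WT + IB, 0.845 to 2.81 in Sc12, and 94.5, 110 and 169 in Sc12 + IB. Of its 50-base windows 14.3% occur more than once in the genome, within the gene or elsewhere. Of the 4 alpha-cell genes, 1 was called up and 2 down in Sc12, and 2 up and 2 down in WT. Their summed level was 210 to 219 CPM in Sc12 and 184 to 268 in Sc12 + IB.

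Genes that fell further in WT were led by *AGA2* and *BAR1*, which only a cells express. *AGA2* (chrVII:436570-436833), an agglutinin subunit, was at 252 to 281 CPM in WT, 10.4 to 20.3 in WT + IB, 51.4 to 56.6 in Sc12, and 19.5 to 22.2 in Sc12 + IB. *BAR1* (chrIX:322342-324105), the protease that degrades α-factor, was at 454 to 494 CPM in WT, 37.4 to 47.1 in WT + IB, 168 to 199 in Sc12, and 52.8 to 56.7 in Sc12 + IB. In both genes untreated Sc12 was below WT in every library. The *AGA2* interaction of 2.84 was 1.74 and not called in limma on log2(FPKM + 1). *ANB1* (chrX:524908-525381), the translation factor eIF5A of low-oxygen cells, rose from 10.8 to 12.9 CPM to 77.6, 208 and 146 in WT, and from 9.10 to 12.2 to 23.2 to 26.0 in Sc12.

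Gene lists. The 50 lists of pathways and complexes were read against the share of all loci called, 16.0% higher and 9.27% lower in the interaction, and against the median locus, at 0 in WT and −0.02 in Sc12. Under library totals the medians of lists shift down with the median locus by about the same amount.

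Of 18 loci of thiamine synthesis and uptake, 16 had a higher change in Sc12 and none a lower one. The median response was −0.01 in WT and 2.92 in Sc12. *THI6* (interaction 4.77), *THI80* (4.18), *THI2* (2.77) and *THI3* (2.74) joined the genes above, and only *THI22* (0.53) and *PDC2* (−0.21) were not called. *THI5*, *THI11*, *THI12* and *THI13* are near-identical copies, and the counting may have split reads between them. Among pyruvate decarboxylase, aldehyde and alcohol dehydrogenase genes, 6 of 15 were higher and 1 was lower. *PDC1*, the main decarboxylase, had an interaction of 4.17 and *PDC6* 2.1, while *ADH2*, the glucose-repressed alcohol dehydrogenase, had −2.26.

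All 24 loci of sulfate assimilation and methionine synthesis had a higher change in Sc12, 18 of them also under library totals. The medians were −0.15 in WT and 2.89 in Sc12. *MET5*, *MET1* and 1 other were opposite, 16 members rose in Sc12 alone, and the largest of those were *STR3* (5.77), cystathionine beta-lyase, and *MET16* (5.17), PAPS reductase.

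Amino acid synthesis moved in the same way. A higher change in Sc12 was called for 8 of 10 arginine genes, 10 of 11 branched-chain genes, 8 of 9 lysine genes, 7 of 11 aromatic genes and 5 of 5 histidine genes, with none lower. Under library totals 6 arginine, 6 branched-chain, 3 lysine, 5 aromatic and 4 histidine genes were called higher, and 1 branched-chain and 2 aromatic genes lower. Median responses in WT and Sc12 were 0.93 and 3.55 for arginine, 0.99 and 2.71 for branched-chain, 0.48 and 2.03 for lysine, 0.91 and 2.45 for aromatic and 0.45 and 2.92 for histidine genes. Leading members were *ARG4* (5.68), argininosuccinate lyase, *LEU1* (4.06), isopropylmalate isomerase, and *HIS4* (3.93), a histidine enzyme of 3 activities. *TRP3* (2.99), an anthranilate synthase subunit in the pathway that ends at the deleted *TRP5*, was among the aromatic genes. Cytosolic aminoacyl-tRNA synthetases were higher at 7 of 20, led by *KRS1* (2.55), the lysyl-tRNA synthetase.

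Among amino acid permeases 15 of 21 were higher in the interaction and 1 was lower, with median responses of −0.12 in WT and 2.08 in Sc12. The methionine permeases *MUP3* (4.72) and *MUP1* (4.67) and the arginine permease *CAN1* (4.46) followed *AGP1* and *GAP1*. The tryptophan permease *TAT2* had 0.96 and was not called. *PTR2* (−1.52), the peptide transporter, was the only lower member. Of the 21 permeases, 10 were called higher and 2 lower under library totals. Genes under nitrogen catabolite repression were mixed, with 13 of 27 higher and 3 lower. *DUR3* (5.27), a urea transporter, and *CPS1* (3.57), a vacuolar carboxypeptidase, were higher, while the allantoin genes *DAL1* (−1.32), *DAL2* (−1.42) and *DAL4* (−1.11) were lower.

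Heat shock proteins and cochaperones were higher at 17 of 24 loci, with medians of −0.37 in WT and 1.61 in Sc12. Their summed level was 73580 to 75620 CPM in WT, 43550 to 53990 in WT + IB, 57120 to 59730 in Sc12, and 133900 to 168200 in Sc12 + IB. *SSA2* (3.10) and *SSE2* (2.64), of the Hsp70 and Hsp110 families, rose in Sc12 alone. *HSP26* (0.53) and *HSP12* (0.50) were not called. Of the 24 heat shock loci, 13 were called higher and 2 lower under library totals. Glycolysis was higher at 10 of 15 loci, with medians of 0.84 in WT and 2.1 in Sc12, led by the phosphofructokinase subunits *PFK2* (2.89) and *PFK1* (2.30). Under library totals 4 glycolysis loci were higher and 2 lower, and in limma on log2(FPKM + 1) 3 were higher. Of the hexose transporters and sensors, 7 of 16 were higher and 4 lower, with *HXT1* (3.91) and *HXT3* (2.94), low-affinity carriers, among the higher.

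Of 16 loci of gluconeogenesis and the glyoxylate cycle, 7 were lower and 1 higher in the interaction, with median responses of 0.66 in WT and −1.18 in Sc12. Of the 7, 5 were opposite. Daughter cell separation genes were lower at 8 of 13 loci, with medians of 1.67 in WT and −0.67 in Sc12. Of the cyclins and cell cycle regulators 8 of 18 were lower and 2 higher. The G1 cyclins *CLN2* (−2.46) and *CLN1* (−2.03) and the S-phase cyclin *CLB5* (−1.97) rose in WT alone, while *CDC20* (3.79), an activator of the anaphase promoting complex, rose in Sc12 alone. Purine synthesis was split, with 5 of 16 lower, led by *ADE17* (−2.20), and 4 higher.

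The a-cell genes fell in both strains, 7 of 7 in WT and 6 of 7 in Sc12, and the change in Sc12 was the higher one, meaning the smaller fall, at 5 of 7. Their summed level was 1913 to 2053 CPM in WT and 856 to 942 in untreated Sc12, and 165 to 207 in WT + IB and 230 to 262 in Sc12 + IB. Pheromone response genes had a higher change in Sc12 at 10 of 18, among them *FUS1* (2.03), which fell in WT alone, and *PRM5* (2.70), which was opposite. Trehalose and glycogen genes were higher at 4 of 16, of which *TSL1* (1.73), *TPS2* (1.66) and *PGM2* (1.41) fell in WT alone. Under library totals 3 pheromone response genes were called higher and 1 lower, and no trehalose or glycogen gene was called. Of the 7 a-cell genes, 3 were then called higher, and 4 in limma on log2(FPKM + 1).

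Of the 137 cytosolic ribosomal protein loci 108 rose in WT (median 1.5) and 79 in Sc12 (median 1.12), while 14 were lower and 1 higher in the interaction. The proteasome had 1 of 34 loci called and the vacuolar proton ATPase none of 15. At ribosome biogenesis loci the median responses were −0.12 in WT and −0.74 in Sc12, with 22 of 92 lower and 1 higher. These counts depend on the scaling: under library totals 92 of 137 ribosomal protein, 65 of 92 ribosome biogenesis, 11 of 34 proteasome and 4 of 15 ATPase loci were called lower. Among lists with at least 5 loci, 13 had a positive median interaction that turned negative under library totals. They were aminoacyl-tRNA synthetases (0.73 to −0.04), trehalose and glycogen (0.74 to −0.01), hexose transporters (0.46 to −0.30), the list of pyruvate decarboxylases with aldehyde and alcohol dehydrogenases (0.64 to −0.12), and the vacuolar ATPase (0.19 to −0.57). The others were vitamin B6 synthesis, the kynurenine pathway, autophagy, peroxisomal beta-oxidation, cell wall mannoproteins, seripauperins, flocculins and iron uptake. The medians of the thiamine, sulfur, arginine, branched-chain, lysine, aromatic, histidine, permease, heat shock and glycolysis lists stayed positive, between 0.35 for glycolysis and 2.08 for sulfur.

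**Figure D4:**
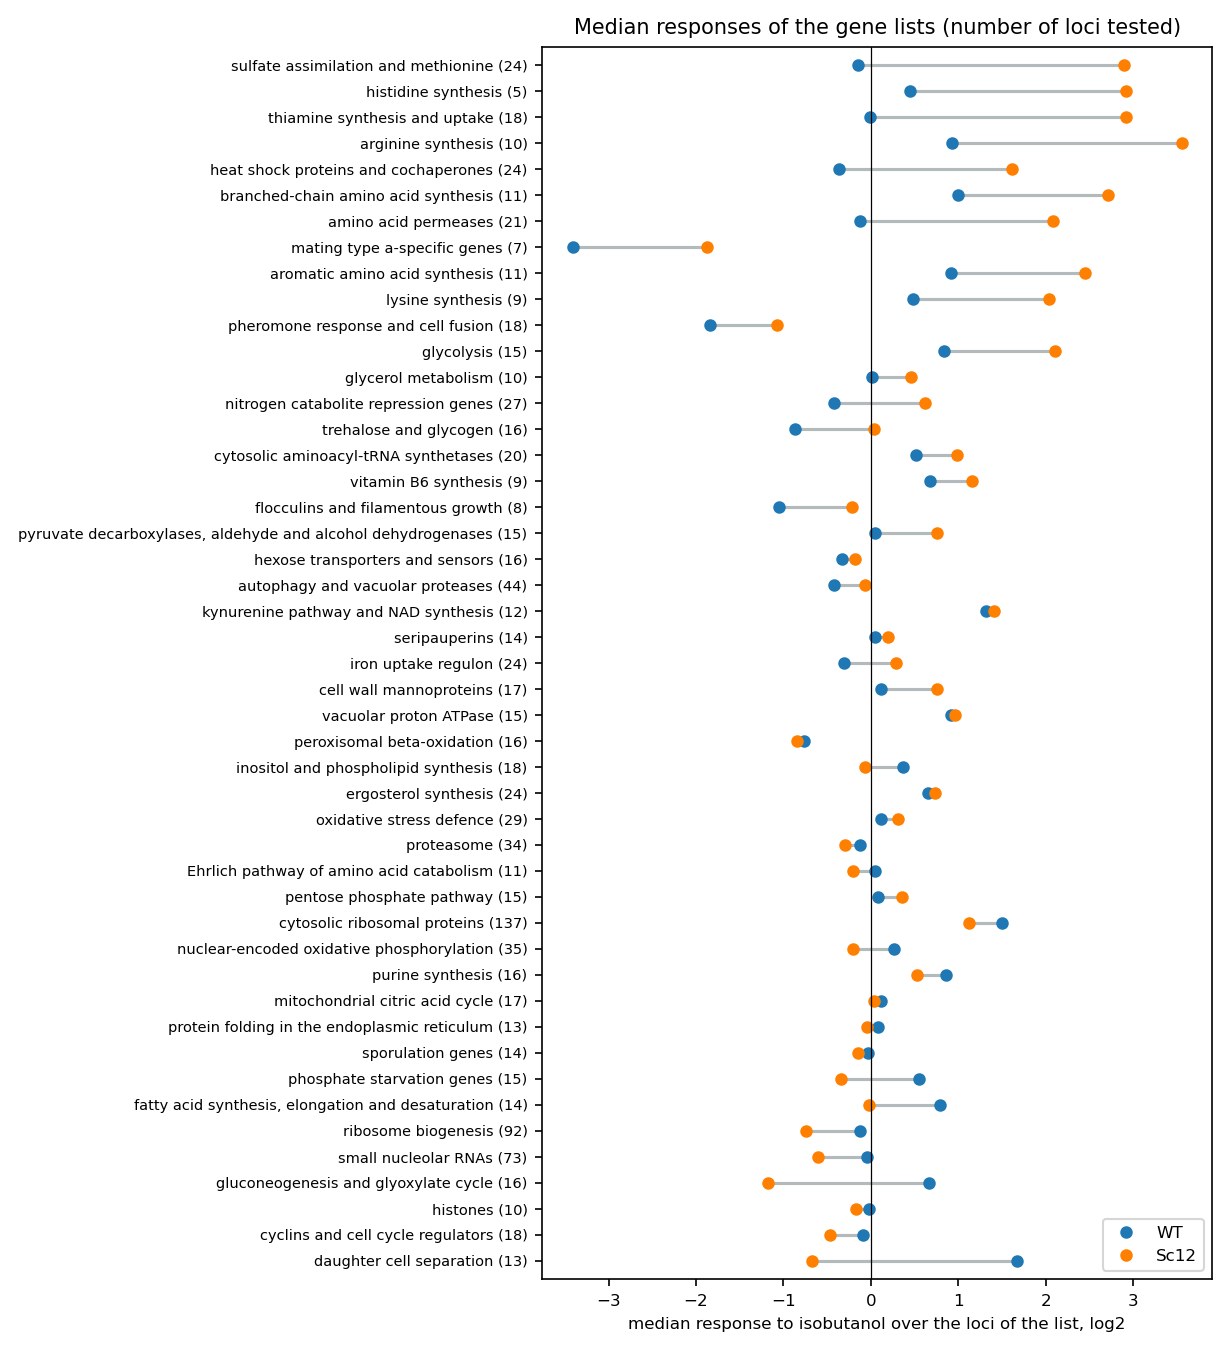
For each list with at least 5 tested loci, dots give the median log2 response to isobutanol in WT (blue) and Sc12 (orange), with the number of loci in brackets; lists are ordered by median interaction. Sulfur, histidine, thiamine and arginine genes at the top lie to the right in Sc12, and daughter cell separation at the bottom has medians of 1.67 in WT and −0.67 in Sc12.

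Promoter sequences. The stretch from 250 bases before to 50 bases after the gene start was read for 5728 tested loci from the RefSeq genome R64 and searched on both strands for short motifs. The Gcn4 motif TGACTCA was in 2.83% of all promoters, in 10.3% of the 475 for genes risen in Sc12 alone, in 19.8% of the 91 for genes called in both strains with a larger change in Sc12, and in 0.68% of the 147 for genes fallen in Sc12 alone. The GATA motif GATAAG was in 14.6% of all, in 20.0% of the genes risen in Sc12 alone and in 27.5% of those with a larger change in Sc12. It was in 8.33% of the 48 opposite genes risen in Sc12 and in 12 of 27 genes under nitrogen catabolite repression. The stress response element AGGGG was in 21.8% of all promoters and in 37.4% of the 123 for genes fallen in WT alone. It was also in 15 of the 48 opposite genes risen in Sc12 (31.2%) and in 5 of the 13 fallen in Sc12 (38.5%). The pheromone response motif TGAAACA was in 7.28% of all and in 27.6% of the 29 for genes called in both strains with a larger change in WT. The Cbf1 motif CACGTG was in 2.92% of all and in 8 of 24 sulfur genes. Other motifs searched were the ribosome biogenesis elements PAC (GATGAG) and RRPE (AAATTTT), the proteasome motif of Rpn4 (GGTGGCA), the inositol response core (CATGTG), the Hap complex motif (CCAAT) and the Met31 and Met32 motif (TGTGGC). These shares describe letters in a short window, a match is not a shown binding site, and no match says only that the letters are not there.

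Below are 8 such promoters, 5′ to 3′ on the coding strand, chosen because they belong to genes described above and hold a motif searched for. Capitals mark this motif, which in *MEP2* and *AGA2* stands as its reverse complement. In *MET16* they mark, in order, CACGTG, the Met31 and Met32 motif TGTGGC as its reverse complement, and TGACTCA. The marked motifs do not overlap. Other motifs that were searched for stand unmarked in lower case. Among them are TGAAACA in *GAP1* and *CYC7*, GATGAG in *GAP1*, CATGTG in *MEP2* and AAATTTT in *HIS4*.
*GAP1*, chrXI:514813-515112, plus strand: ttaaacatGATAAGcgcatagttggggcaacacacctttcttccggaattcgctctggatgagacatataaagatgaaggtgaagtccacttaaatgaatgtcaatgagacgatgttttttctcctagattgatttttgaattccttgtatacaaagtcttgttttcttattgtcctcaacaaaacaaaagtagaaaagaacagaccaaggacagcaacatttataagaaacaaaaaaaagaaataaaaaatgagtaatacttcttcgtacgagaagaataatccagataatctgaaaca
*MEP2*, chrXIV:357203-357502, plus strand: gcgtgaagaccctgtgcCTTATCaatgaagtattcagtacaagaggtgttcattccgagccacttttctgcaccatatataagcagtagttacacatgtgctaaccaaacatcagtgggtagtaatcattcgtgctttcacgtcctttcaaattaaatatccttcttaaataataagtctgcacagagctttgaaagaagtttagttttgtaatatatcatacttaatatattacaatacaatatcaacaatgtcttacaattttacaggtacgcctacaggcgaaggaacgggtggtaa
*MET16*, chrXVI:877583-877882, minus strand: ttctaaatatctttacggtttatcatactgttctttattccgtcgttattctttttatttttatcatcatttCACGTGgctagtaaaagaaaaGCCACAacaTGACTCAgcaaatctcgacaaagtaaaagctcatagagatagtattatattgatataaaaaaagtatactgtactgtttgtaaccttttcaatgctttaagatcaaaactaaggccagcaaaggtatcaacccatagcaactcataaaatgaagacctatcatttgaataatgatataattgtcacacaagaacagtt
*ASN1*, chrXVI:822370-822669, plus strand: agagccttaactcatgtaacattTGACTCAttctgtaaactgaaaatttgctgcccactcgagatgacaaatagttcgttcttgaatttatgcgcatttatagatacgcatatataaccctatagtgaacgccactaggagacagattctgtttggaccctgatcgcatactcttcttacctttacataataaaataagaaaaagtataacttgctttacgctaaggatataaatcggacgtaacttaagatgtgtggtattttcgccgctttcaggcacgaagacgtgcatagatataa
*HIS4*, chrIII:68284-68583, minus strand: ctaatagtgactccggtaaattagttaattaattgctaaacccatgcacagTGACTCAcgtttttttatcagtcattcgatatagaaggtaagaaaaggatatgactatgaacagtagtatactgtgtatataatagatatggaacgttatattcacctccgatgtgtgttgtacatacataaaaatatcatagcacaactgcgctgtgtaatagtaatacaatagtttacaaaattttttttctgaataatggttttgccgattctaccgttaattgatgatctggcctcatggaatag
*CYC7*, chrV:79928-80227, minus strand: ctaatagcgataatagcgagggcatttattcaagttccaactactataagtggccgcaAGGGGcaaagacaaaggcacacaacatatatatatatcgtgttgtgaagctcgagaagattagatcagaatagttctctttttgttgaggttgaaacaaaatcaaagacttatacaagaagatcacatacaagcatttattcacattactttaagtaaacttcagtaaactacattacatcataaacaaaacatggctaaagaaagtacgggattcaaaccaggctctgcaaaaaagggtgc
*BAR1*, chrIX:322092-322391, plus strand: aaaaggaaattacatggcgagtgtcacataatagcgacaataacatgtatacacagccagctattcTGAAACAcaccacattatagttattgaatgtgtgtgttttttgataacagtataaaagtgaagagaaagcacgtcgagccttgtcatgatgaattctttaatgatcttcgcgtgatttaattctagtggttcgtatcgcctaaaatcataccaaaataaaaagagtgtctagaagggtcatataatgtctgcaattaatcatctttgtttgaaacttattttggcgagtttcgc
*AGA2*, chrVII:436784-437083, minus strand: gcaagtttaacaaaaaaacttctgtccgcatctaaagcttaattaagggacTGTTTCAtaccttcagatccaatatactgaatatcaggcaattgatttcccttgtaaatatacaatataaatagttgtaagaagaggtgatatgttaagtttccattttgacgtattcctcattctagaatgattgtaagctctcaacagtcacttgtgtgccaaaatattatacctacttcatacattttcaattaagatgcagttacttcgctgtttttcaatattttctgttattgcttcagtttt

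*GAP1* and *MEP2* carry GATAAG 242 and 233 bases before the gene start and had interactions of 5.88 and 6.32. *ASN1* and *HIS4* carry TGACTCA 227 and 199 bases before it and had 3.97 and 3.93. In *MET16*, with 5.17, 3 motifs lie between 178 and 142 bases before the start. *CYC7*, which fell in WT alone, has AGGGG at 192 bases, and *BAR1* and *AGA2* have the pheromone response motif at 184 and 199 bases. *PHO3*, *THI20*, *UGA4* and *HXT14* had none of the motifs given here in this window. The genes with a printed promoter were chosen for their motifs, so motif and interaction side by side show no link. *GAP1* is of the opposite class risen in Sc12, in which GATAAG was less frequent (8.33%) than in all promoters (14.6%).

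The same contrast with added tryptophan. The 12 libraries with tryptophan measured the same interaction in libraries that the contrast did not use. The estimate of the spread came from both sets together. Over all loci it was called at 1438 of 6346 (22.7%), 702 higher (11.1%) and 736 lower (11.6%). The steepest rises of Sc12 + IB were not measured again in Sc12 + IB + Trp. *PDC5* was at 40.7 to 44.3 CPM in WT + Trp, 34.6 to 70.8 in WT + IB + Trp, 39.2 to 43.1 in Sc12 + Trp, and 38.1, 41.9 and 42.3 in Sc12 + IB + Trp. Its interaction with tryptophan was −0.21 (adjusted p = 0.514) and the three-way interaction, the value with minus the value without tryptophan, was −10.12 (adjusted p = 3.52e-15). *THI4* was at 43.9 to 58.8 CPM in Sc12 + IB + Trp and *AGP1* at 388 to 480, with levels in Sc12 + Trp of 37.6 to 45.0 and 330 to 363.

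Of the 56 opposite loci risen in Sc12, 18 (32.1%) were called in the same direction with tryptophan and 1 in the other, and their median interaction was 0.69 against 3.16 without it. *GAP1* was among the 18. It was at 429 to 568 CPM in WT + Trp and 140 to 213 in WT + IB + Trp, and at 226 to 241 in Sc12 + Trp and 264 to 320 in Sc12 + IB + Trp, an interaction of 1.69. The fall in WT was thus measured again, and the rise in Sc12 was far smaller. The three-way interaction was called at 25.6% of all loci, positive at 9.74% and negative at 15.9%, and was negative at 52 of the 56. The three-way value contains the contrast that chose the loci, so some decrease follows from the choice itself.

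Of the 519 loci risen in Sc12 alone, 92 (17.7%) were called higher with tryptophan and 42 (8.09%) lower, against 11.1% and 11.6% of all loci. The median went from 1.86 to 0.22. Of the 98 loci called in both strains with a larger change in Sc12, 4 were called higher and 24 lower with tryptophan. *ASN1* moved from 3.97 to −1.05.

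Of the loci that responded in WT alone, 76 of the 148 fallen (51.4%) were called higher with tryptophan and 78 of the 177 risen (44.1%) lower. The difference between these shares and those of the Sc12 classes was not tested. Their medians were 1.08 and −0.87 with tryptophan. *REE1* was at 74.8 to 84.4 CPM in WT + Trp, 665 to 811 in WT + IB + Trp, 107 to 128 in Sc12 + Trp, and 98 to 188 in Sc12 + IB + Trp. Its interaction was −2.94 with and −3.27 without tryptophan. *YJL218W* (−4.69), *RTN2* (2.53) and *YCL074W* (5.09) were also called again, whereas *CAR1* turned from 2.74 to −1.03 and *RRT5* from −3.22 to 0.53. Of *CAR1*, the level was 547 to 755 CPM in WT + Trp and 113, 220 and 388 in WT + IB + Trp, and it was 971 to 1038 in Sc12 + Trp and 144 to 207 in Sc12 + IB + Trp.

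Of the 19 opposite loci fallen in Sc12, 8 (42.1%) were called lower with tryptophan and none higher. *MLS1* kept a smaller interaction of −1.56, with 232, 322 and 533 CPM in Sc12 + IB + Trp against 438 to 544 in Sc12 + Trp, ranges that overlap. *FBP1* (−0.29) was not called. *DSE1* (−1.63) and *SCW11* (−1.76) were called again. Of the 189 loci fallen in Sc12 alone, 56 (29.6%) were called lower, among them *ARO10* (−2.16) and *CHA1* (−2.00), while *ARO9* had −0.43 and was not called.

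Whole lists differed too. Thiamine genes went from 16 of 18 higher to 2 higher and 2 lower, sulfur genes from 24 of 24 higher to 6 higher and 4 lower, and heat shock genes from 17 of 24 higher to 3 higher and 1 lower. Cytosolic ribosomal proteins, with 14 of 137 lower without tryptophan, were lower at 104 of 137 with it (median −1.49), and glycolysis turned from 10 of 15 higher to 11 of 15 lower. The a-cell genes had a higher change in Sc12 at all 7 with tryptophan, with a median of 2.01 against 1.53 without it.

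**Figure D5:**
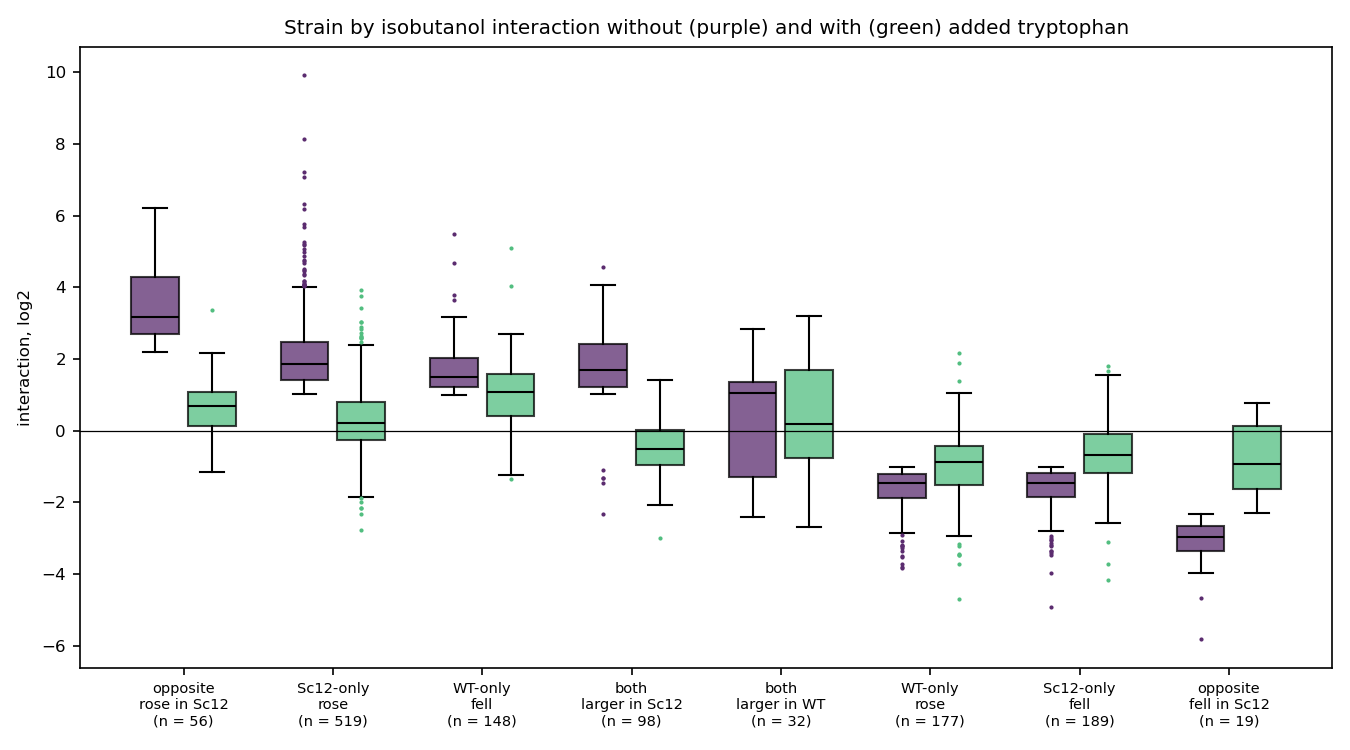
Boxes (quartiles, with the median as a line and whiskers to 1.5 times the interquartile range) show the log2 interaction without (purple) and with (green) added tryptophan for the loci of each response class, which were chosen on the purple values. With tryptophan the median of loci risen in Sc12 alone is 0.22 and that of loci fallen in WT alone 1.08.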

How the data were processed

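Total RNA of 24 yeast libraries (TruSeq, 50-bp single-end reads) was sequenced. Per the labels and the study's methods the authors trimmed reads with Trimmomatic 0.39 after bcl2fastq 2.18, aligned them to sacCer3 with TopHat2 2.1.1 and Bowtie2, and quantified loci with Cufflinks 2.2.1. The annotation and strandedness are not given in the sources used here. The deposited table holds, for each locus and replicate, an estimated count of fragments (98.83% of values within 0.001 of a whole number) and an FPKM value. The authors' fold changes and p-values in a second deposited table were not used, only its locus positions. The table numbers replicates from 0, read here as the labels' numbers from 1. That replicates were separate cultures is not stated, so p-values measure the spread between these libraries, which may be technical.

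Estimated counts were rounded. Of 6929 loci, 24 without status OK in every library were left out, and 6346 with a mean FPKM of at least 1 were tested (R 4.3.3, edgeR 4.0.16, quasi-likelihood test, TMM, 8 group means over 24 libraries, Benjamini-Hochberg adjustment). In simulated data all of 100 loci changed 4-fold and 47% of 100 changed 2-fold were called, with 1 false call. A 2-fold change lies at the log2 threshold, and 95% of those loci passed the adjusted p alone. The simulation used the WT profile in every group, with rises and falls balanced, so it cannot test the scaling in Sc12 + IB. Alternatives were library totals, DESeq2 1.42.0 (size factors and Wald test), limma 3.58.1 on log2 FPKM, other filters, the 12 libraries alone, a replicate block and leaving out each library. Of 6905 loci used, 1099 share a counted stretch with another locus and 103 join several genes. A gene was named if its locus held 1 gene, reached a mean of 10 CPM in a group and had treated and untreated libraries apart in each responding strain. By interaction size, 8 opposite genes were taken in each direction, 6 for each strain and direction, and 3 for each kind of shared response, and up to 4 within a list. The other genes named were chosen after their values were seen. The groups and gene lists were chosen with earlier results of these data known. Promoters came from the RefSeq R64 genome, whose gene start and end were those of the table at 91.55% of loci with a reference position. Sequence names were not part of this comparison. Gene names matched at 6110 of 7048 systematic names. Intervals are standard errors. Some items of the lists and motifs are not reported here.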

Additional observations from a re-analysis of the deposited data

Results flagged for a closer look

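These results stood out because the responses of the 2 strains differed by a test of the difference itself, edgeR's quasi-likelihood test of the interaction. The interaction was called at 1604 loci without and at 1438 with added tryptophan. The three-way interaction, which tests whether the strain difference itself changed with tryptophan, was called at 1624 loci (25.6% of 6346). Among genes that fell in WT and rose in Sc12, the log2 interaction was 6.21 at *PHO3*, 5.92 at *THI20*, 5.88 at *GAP1*, 5.86 at *UGA4*, 5.57 at *TPO2*, 5.53 at *MET5*, 5.37 at *DUR12* and 5.31 at *THI7*. Among genes that rose in WT and fell in Sc12, it was −5.82 at *MLS1*, −4.68 at *SNR4*, −3.96 at *HXT14*, −3.37 at *DSE1*, −3.36 at *SCW11*, −3.36 at *15S_RRNA*, −3.32 at *FBP1* and −3.27 at *SPO74*. Among genes that rose in Sc12 alone, it was 9.91 at *PDC5*, 8.14 at *THI4*, 7.22 at *ALD5*, 7.07 at *THI73*, 6.32 at *MEP2* and 6.17 at *AGP1*. Among genes that fell in Sc12 alone, it was −3.96 at *SNR34*, −3.48 at *SNR190*, −3.41 at *CHA1*, −3.19 at *ICL1*, −3.05 at *ARO9* and −2.80 at *ARO10*. Among genes that rose in WT alone, it was −3.84 at *YJL218W*, −3.35 at *YFL012W*, −3.27 at *REE1*, −3.23 at *DSE2*, −3.22 at *RRT5* and −3.20 at *YNL277W-A*. Among genes that fell in WT alone, it was 5.49 at *YCL074W*, 3.17 at *CYC7*, 3.12 at *ECM11*, 2.84 at *RTN2*, 2.74 at *CAR1* and 2.59 at *FRK1*. Among genes called in both strains with a larger change in Sc12, it was 4.57 at *MF(ALPHA)1*, 4.08 at *YOL014W* and 3.97 at *ASN1*. Among those with a larger change in WT, it was 2.84 at *AGA2*, −2.40 at *ANB1* and 1.77 at *BAR1*. With tryptophan, 22 of these 46 genes were called in the same direction, where 11.1% of all loci were called higher and 11.6% lower. The 46 were taken in order of the size of this same interaction, so their values are large by construction.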

How the results depend on the processing

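Library totals gave 2899 interaction calls (431 higher, 2468 lower) and 3181 Sc12 responses, 29 and 59 opposite loci risen and fallen in Sc12, 222 and 1490 loci risen and fallen in Sc12 alone, 357 and 76 in WT alone, and 2749 three-way calls. limma on log2(FPKM + 1) gave 999 interaction calls (609 and 390), 36 and 10 opposite loci, 118 fallen in Sc12 alone, 68 fallen in WT alone, 816 calls with tryptophan and 525 three-way. limma on log2(FPKM + 0.1) gave 988 (600 and 388), 331 and 125 in Sc12 alone, 77 fallen in WT alone, 808 with tryptophan and 513 three-way. The adjusted p alone gave 4008 (2009 and 1999), 4401 WT and 4661 Sc12 responses, 466 and 361 opposite loci, 558 fallen in Sc12 alone, 456 and 338 in WT alone, 3956 with tryptophan and 3119 three-way. The cause of these shifts was not tested. Leaving out 1 library at a time gave 1525 to 1669 interaction calls, 50 to 60 and 16 to 24 opposite loci, 479 to 534 and 169 to 213 in Sc12 alone, and 164 to 194 and 132 to 166 in WT alone. Over the alternatives, the values of the 46 named genes kept their direction, and 6 of 1008 were no longer called. These were limma values at *15S_RRNA* (−1.86 and −2.10), *SNR190* (−3.04 and −3.05) and *AGA2* (1.74 and 1.74). Direction refers to the interaction: in limma on log2(FPKM + 1), 32 of 56 and 8 of 19 opposite loci kept their class, and so did 314 of 519, 87 of 189, 96 of 177 and 56 of 148 loci of 1 strain alone. Same-numbered libraries did not deviate together (median r −0.025 over 18 pairs, 1 above 0.1), so the numbers were not read as pairs. The replicate block gave 1607 interaction calls, 56 and 18 opposite loci, 522 and 189 in Sc12 alone and 178 and 149 in WT alone. Depth limits the size of a fold at the lowest levels, as at *SNR34*, with 0 CPM in 1 Sc12 + IB library.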

Other observations

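Of the 6346 loci, 223 called interactions lay within 0.1 of the log2 threshold, and 259 others with an adjusted p below 0.05 had an absolute log2 between 0.9 and 1 (edgeR's quasi-likelihood test). Over all loci 25.3% were called in the interaction, 16.0% higher and 9.27% lower, and the counts that follow are read against these shares. Of the 73 small nucleolar RNAs 17 had a lower and 5 a higher change in Sc12, 30.1% called. Nuclear genes of oxidative phosphorylation were lower at 9 of 35 and higher at 2, 31.4% called. Ehrlich pathway genes were lower at 2 of 11 and higher at 3. Peroxisomal beta-oxidation genes had medians of −0.76 in WT and −0.84 in Sc12, with 1 of 16 called in the interaction. Alpha-cell genes were called at 2 of 4, 1 in each direction.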
